A study of Medicago sativa with 86 samples.

Results

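The leaf transcriptome of ineffective Agate was compared between elevated and ambient CO2. Ineffective Agate is the class of the alfalfa (Medicago sativa) cultivar Agate that is labelled as ineffective in nitrogen fixation. Its members were the libraries whose labels give both Agate and ineffective, 21 of the 86 libraries of the series. Of these, 11 came from 600 ppm CO2 and 10 from 420 ppm. A further Agate library at 10 mM KNO3 and 420 ppm, whose labels contradict each other on fixation, was left out.

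Per the labels, all plants were inoculated with rhizobium, grown in clay and sand in growth chambers under short days, and fed once a week with KNO3 at 6, 10 or 16 mM in nutrient solution. At 6 mM and at 10 mM there were 4 libraries at 600 ppm and 3 at 420 ppm, and at 16 mM there were 3 and 4. Each CO2 level had its own chamber or chambers, so an effect of CO2 and one of the chamber cannot be told apart below. Neither plant age, the bacterial strain nor the number of plants in a library is stated, and the labels do not say whether the plant or the bacterium makes the class ineffective. The p-values therefore measure the spread between these libraries.

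Alfalfa fixes carbon by the C3 pathway, in which the enzyme Rubisco works faster at higher CO2. In many C3 plants kept at elevated CO2, sugars build up in the leaf, leaf nitrogen is diluted and transcripts of the photosynthetic machinery decline, a response known as photosynthetic acclimation. Legumes with working root nodules can meet a greater nitrogen demand by sending more carbon to their bacteria, whereas plants with ineffective nodules depend on nitrogen from the soil solution, and the title of the series puts carbon and nitrogen balance at elevated CO2 as its question. The deposited table identifies genes by codes beginning with MsG, and none of its 49095 identifiers matched the reference table of alfalfa gene names. No gene below can therefore be given a function or a place in the genome, and the leaf label could not be checked against marker genes.

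The 21 libraries held 15408689 to 24489884 counts. Along the first principal component of their log2 values, which carried 20.6% of the variance, CO2 level accounted for 56.8% of the differences and nitrate level for 2.80%. The second component carried 11.3%. Of the 420 ppm libraries 2 stood apart. Replicate 1 at 10 mM lay at 84.6 on the first component, where the 11 libraries at 600 ppm ran from 6.66 to 84.5 and the other 9 at 420 ppm from -118.9 to -10.3. Replicate 1 at 16 mM lay at -202.5 on the second component, and the other 20 libraries lay between -70.6 and 39.2. These 2 libraries also had the largest variance around their group means, 1.95 and 2.09 on the squared log2 scale against 0.617 to 1.43 in the others. Many of the results below are also given without them.

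**Figure D1:**
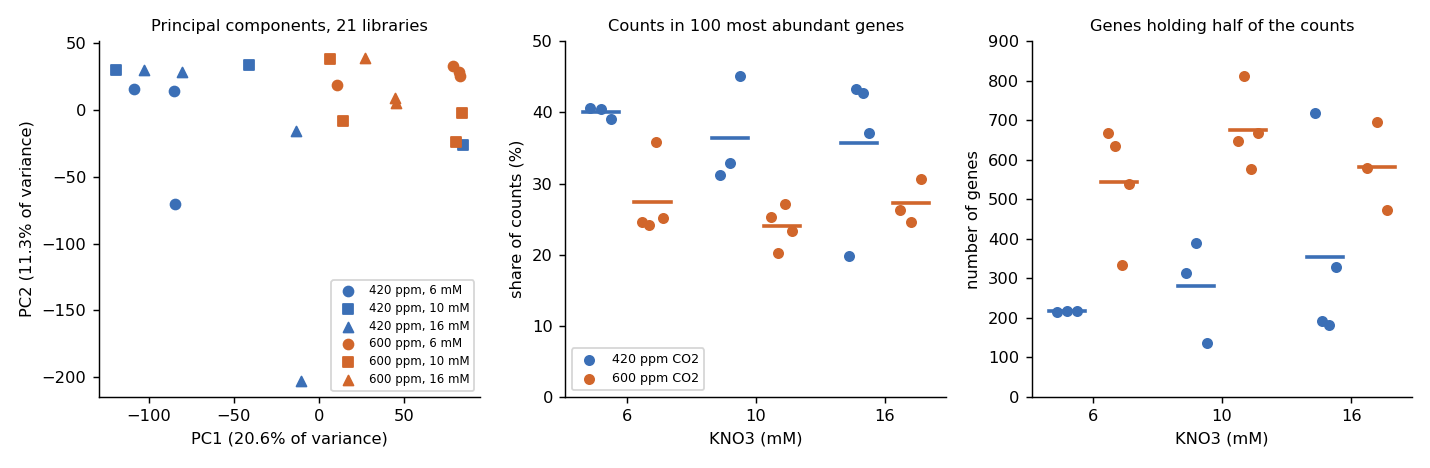
Left, the first and second principal components of log2 CPM in the 21 libraries, with color for CO2 and symbol for KNO3. Middle, the share of each library's counts held by the 100 most abundant genes, and right, the number of genes that hold 50% of the counts, by KNO3 (mM), with a point per library and a bar at the mean. The 600 ppm libraries lie to the right of all but 1 of the 420 ppm libraries on the first component, and at 6 and 10 mM the middle panel shows no overlap between the CO2 levels.

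Across nitrate levels 2421 genes changed with CO2 in ineffective Agate, and falls outnumbered rises. At 600 ppm 857 genes rose and 1564 fell, which is 3.94% and 7.18% of the 21776 genes tested and 11.1% in all. The median size of a change was 1.03 on the log2 scale among genes that rose and 1.03 among those that fell. More than 1 on that scale separated the CO2 levels for 439 of the risen and 816 of the fallen genes, and more than 3 for 64 and 94. Genes were tested in edgeR by quasi-likelihood, with nitrate level as a block, and those with a Benjamini-Hochberg adjusted p under 0.05 were called. Without the 2 libraries that stood apart 2121 genes rose and 2380 fell, 9.53% and 10.7% of 22245 tested, and 2302 of 2420 genes called with all libraries and tested in both fits were called again in the same direction. Both fits share 19 libraries, so this overlap is no independent check.

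Few genes separated the CO2 levels in every library. In 12 genes all 11 libraries at 600 ppm were above all 10 at 420 ppm, and in 29 all were below, which is 0.0551% and 0.133% of genes tested. With those 2 left out these numbers were 111 and 171, or 0.51% and 0.785%. Leaving libraries out can only keep or raise such numbers, so the direction of this change was set in advance. When each nitrate level was read on its own, 48 genes were higher without overlap at all 3 levels and 129 lower, 0.22% and 0.592% of genes tested. From among those, called and with a mean of at least 1 CPM, the 2 that rose most and the 2 that fell most are described. CPM are counts scaled to library size with TMM factors. The table gives no gene lengths, so levels are compared between libraries of a gene and not between genes.

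MsG0380016053.01 rose in each library at 600 ppm above each library at 420 ppm. Its level was 0.348 CPM in the lowest library, 0.65 in the median and 1.62 in the highest at 420 ppm, and 2.33, 8.16 and 19.1 CPM at 600 ppm. Its log2 fold change was 3.26 ± 0.371 (SE, edgeR adjusted p = 0.000161). The mean was 0.815 ± 0.384 CPM at 420 ppm (SD, n = 10) and 8.39 ± 4.65 CPM at 600 ppm (SD, n = 11). The highest level was in replicate 3 at 10 mM and 600 ppm, where replicates 1 to 4 held 5.64, 8.24, 19.1 and 12.7 CPM.

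MsG0180004901.01 likewise rose with no overlap between the CO2 levels, from a lower base. At 420 ppm it ran from 0 over a median of 0.235 to 0.788 CPM, with no counts in 4 of 10 libraries, and at 600 ppm from 0.926 over 2.27 to 6.24 CPM. The log2 fold change was 3.44 ± 0.758 (SE, edgeR adjusted p = 0.00749). The 4 libraries at 16 mM and 420 ppm were the lowest group, with 0.192 CPM in replicate 4 and no counts in the other 3.

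MsG0780037187.01 fell most. At 420 ppm its level was 3.4 CPM in the lowest library, 54.5 in the median and 265 in the highest, and at 600 ppm 0.0429, 0.64 and 20.5 CPM. The log2 fold change was -5.47 ± 0.886 (SE, edgeR adjusted p = 0.00113). The CO2 levels did not overlap at any nitrate level, though the highest library at 600 ppm, replicate 3 at 6 mM, was above the lowest at 420 ppm, replicate 3 at 10 mM.

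MsG0880042119.01 fell from a low level, 0.0492 CPM in the lowest library, 0.846 in the median and 12.9 in the highest at 420 ppm, to 0.378 CPM at most at 600 ppm, with no counts in 6 of the 11 libraries there. Its log2 fold change was -5.04 ± 1.07 (SE, edgeR adjusted p = 0.00595). At 10 mM the CO2 levels were separated by little, since replicates 1 and 3 at 420 ppm held 0.0619 and 0.0492 CPM and replicate 1 at 600 ppm held 0.0373 CPM. Each of these 4 identifiers kept its direction and its call under the 30 alternatives run on it. They were named for CO2 levels that do not overlap, so leaving out a single library could hardly reverse the direction.

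In the other lines MsG0380016053.01 and MsG0780037187.01 also passed in the same direction. The log2 fold change of MsG0380016053.01 was 2.36 ± 0.425 in effective Agate (SE, edgeR adjusted p = 0.000472) and 3.48 ± 0.523 in ineffective Saranac (adjusted p = 2.03e-05). That of MsG0780037187.01 was -3.09 ± 0.763 (adjusted p = 0.00647) and -4.31 ± 0.825 (adjusted p = 0.000288). MsG0180004901.01 and MsG0880042119.01 passed in ineffective Saranac, at 3.67 ± 0.678 (adjusted p = 0.000199) and -3.56 ± 1.04 (adjusted p = 0.0117). In effective Agate they stood at 0.75 ± 0.688 and 0.88 ± 0.842, and neither passed there (edgeR adjusted p = 0.529 and 0.549). For MsG0880042119.01 the sign of that fitted value goes against the group means of effective Agate, which were 2.11 ± 4.49 CPM at 420 ppm (SD, n = 11; highest 15.3) and 0.439 ± 0.337 CPM at 600 ppm (SD, n = 11; highest 0.888).

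**Figure D2:**
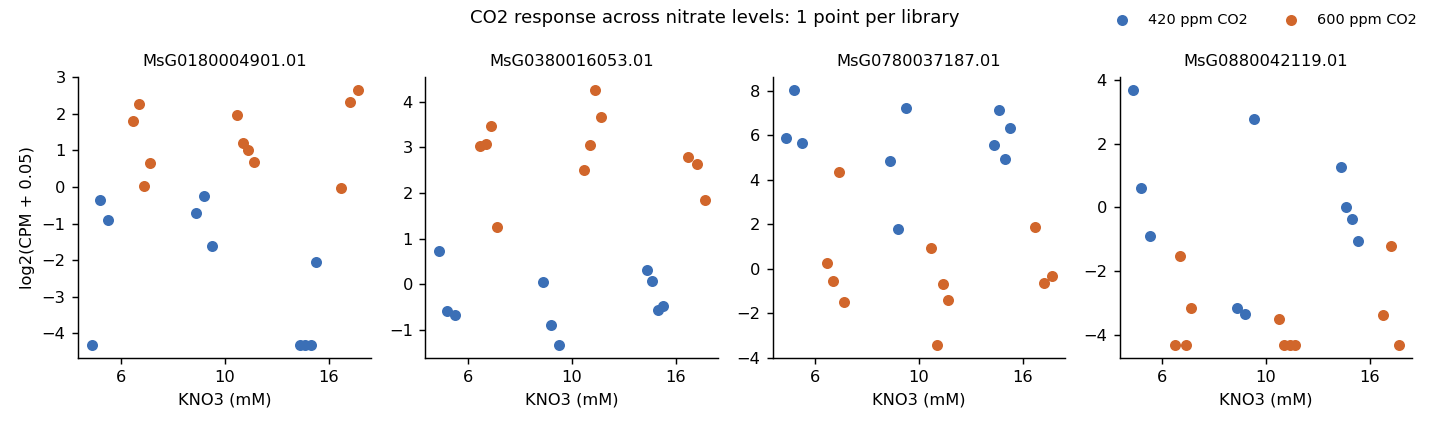
The level of the 4 identifiers described for the response across nitrate levels, as log2(CPM + 0.05), by KNO3 (mM), with a point per library and color for CO2. At each nitrate level the 600 ppm points lie wholly above the 420 ppm points in the left pair of panels and wholly below them in the right pair.

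The share of genes called as fallen was highest among the most abundant transcripts. Most of the 1564 fallen genes nevertheless lay further down, with 466 at ranks 1001 to 5000, 402 at ranks 5001 to 10000 and 421 below. Genes were ranked by their mean CPM in the 64 grouped libraries of the other 3 lines, so that the ranks used no library of ineffective Agate. Among the top 100 ranks 58 genes fell and 2 rose, with a median log2 fold change of -0.80, against 7.18% and 3.94% of all genes tested, whose median was -0.017. Of the 900 genes tested at ranks 101 to 1000, 24.1% fell and 5.78% rose, and of the 4000 at ranks 1001 to 5000, 11.7% and 5.75%. Below rank 10000 the shares were 3.57% and 2.52% of 11779 genes. A gene with more counts can pass the test at a smaller change, so shares called are not comparable between ranks in the way medians are. The medians were -0.18, -0.035, 0.0047 and -0.0029 for the 4 groups of ranks from 101 down. Without the 2 libraries that stood apart 71 of the 100 fell and 4 rose, with a median of -0.90.

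**Figure D3:**
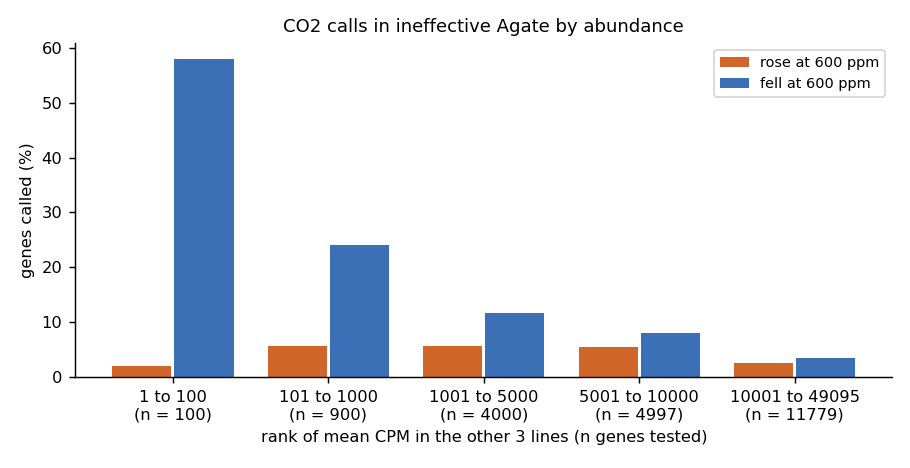
The share of genes tested that rose or fell at 600 ppm in ineffective Agate (%), by rank of mean CPM in the other 3 lines, with the number of genes tested under each pair of bars. Falls drop from 58 in 100 among the most abundant genes to 3.57% below rank 10000, while rises stay between 2.0% and 5.78%.

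The leading genes also held a smaller share of each library's counts at 600 ppm. The 100 most abundant genes held 37.2 ± 7.58% of the counts at 420 ppm (SD, n = 10), with a lowest, median and highest library of 19.8, 39.8 and 45.2%. At 600 ppm they held 26.1 ± 4.09% (SD, n = 11), with 20.3, 25.1 and 35.8%. Averaged over nitrate levels the difference was -11.2 percentage points (exact permutation of CO2 labels within nitrate levels, two-sided p = 0.0014, 42875 arrangements). By level of KNO3, from 6 over 10 to 16 mM, it was -12.7, -12.4 and -8.51 points. The library at 19.8% was replicate 1 at 16 mM and 420 ppm, lower than every library at 600 ppm, and without both libraries that stood apart the difference was -13.8 points (exact permutation p = 9.5e-05, the smallest those libraries can give).

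Counts were spread over more genes at 600 ppm by other measures too. The leading genes that hold 50% of a library's counts numbered 291 ± 169 at 420 ppm (SD, n = 10; median 217) and 603 ± 126 at 600 ppm (SD, n = 11; median 636). The difference averaged over nitrate levels was 318 genes (exact permutation p = 0.00049). At 6 mM and 420 ppm the 3 libraries were close, at 214, 218 and 216 genes, and the 4 at 600 ppm held 668, 636, 333 and 539. At 10 mM the libraries at 420 ppm ran from 136 to 389 and those at 600 ppm from 578 to 812. At 16 mM the ranges overlapped, at 182 to 718 and 473 to 696. The 718 genes were those of replicate 1, which stood apart. Genes at or above 1 CPM numbered 16949 ± 176 (SD, n = 10) and 17147 ± 133 (SD, n = 11), a difference of 212 over nitrate levels (exact permutation p = 0.0024). Their ranges overlapped, at 16548 to 17142 and 16948 to 17373. Without both libraries that stood apart the difference was 364 genes for 50% of the counts (exact permutation p = 9.5e-05). For genes at 1 CPM it was then 247 (exact permutation p = 0.0017). These shares are relative: in bulk leaf RNA a lower share cannot be told apart from fewer cells of a type or from less RNA of those genes per cell.

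Each level of KNO3 was then examined separately, in a fit of the same libraries with a term for each of the 6 groups. At 6 mM 33 genes rose and 77 fell, 0.152% and 0.354% of those tested, with a median size of 2.28 on the log2 scale. At 10 mM and at 16 mM edgeR called none. The counts at an unadjusted p under 0.05 were 2712 at 10 mM and 2454 at 16 mM, 12.5% and 11.3% of genes tested, against 4130 or 19% at 6 mM. The lowest adjusted p at 10 mM was 0.051, for MsG0380016053.01. The counts from DESeq2 were 1947, 666 and 358 for rising KNO3, and those from limma-voom with library weights 1114, 0 and 0. With both libraries that stood apart left out, edgeR gave 964, 323 and 0. Without overlap of the CO2 levels, 2085 genes were higher and 1965 lower at 6 mM (9.57% and 9.02%). These numbers were 1043 and 1229 at 10 mM (4.79% and 5.64%) and 1221 and 1162 at 16 mM (5.61% and 5.34%). Groups this small can also separate by chance, and the share of genes that would do so was not subtracted. The numbers without overlap are therefore not numbers of genes that respond to CO2.

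The number at 6 mM depended on single libraries. It was 1 without replicate 1 or 2 at 600 ppm or without replicate 3 or 4 at 420 ppm, 2 without replicate 4 at 600 ppm, and 436 without replicate 3 at 600 ppm, all at 6 mM. It also moved on leaving out libraries of other levels, which enter the same fit, and the cause of these moves was not tested. At 420 ppm it was 676, 181 and 463 without replicates 1, 3 and 4 at 10 mM, and 284, 61 and 209 without replicates 1, 2 and 3 at 16 mM. At 600 ppm it was 60, 53, 50 and 58 without replicates 1 to 4 at 10 mM, and 52 and 64 without replicates 1 and 4 at 16 mM. At 10 mM the 0 became 101 and 3 without replicates 1 and 3 at 10 mM and 420 ppm, 75 without replicate 1 at 16 mM and 420 ppm, 57 and 1 without replicates 3 and 4 at 6 mM and 600 ppm, and 2 and 1 without replicates 3 and 4 at 16 mM and 600 ppm. At 16 mM it became 1 without replicate 4 at 10 mM and 420 ppm.

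The genes called at 6 mM were then read at the other levels, whose libraries are separate and where edgeR called none of them. All levels share a fit and its estimate of variance for each gene. The p-values at the other levels are therefore not independent of the choice at 6 mM. Of the 33 that rose, 29 had a positive log2 fold change at 10 mM and all 33 at 16 mM, where 48.1% and 47.7% of genes tested were positive. Of the 77 that fell, 74 had a negative one at 10 mM and all 77 at 16 mM, against 51.8% and 52.3%. Their median log2 fold changes were 2.46 at 6 mM, 0.72 at 10 mM and 1.18 at 16 mM for those that rose, and -2.17, -1.02 and -1.37 for those that fell. They were chosen for their values at 6 mM, so the smaller medians elsewhere do not compare the levels. An unadjusted p under 0.05 in the same direction was reached at 16 mM by 23 of the 33 and 59 of the 77, where 4.47% of all genes tested had one upward and 6.8% downward. At 10 mM 14 and 43 reached it, against 4.32% and 8.13%. Without the 2 libraries that stood apart, 534 genes rose and 430 fell at 6 mM. Of the genes called at 6 mM in that fit, 93.3% of rises and 91.4% of falls kept their direction at 10 mM. At 16 mM 97.9% of rises and 97.9% of falls did.

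The 2 that rose most among the genes separated at 6 mM were MsG0480021280.01 and MsG0180000157.01. MsG0480021280.01 was close to absent at 420 ppm, with 0.0735, 0.0613 and 0 CPM in replicates 2, 3 and 4 at 6 mM, and held 12, 4.09, 2.16 and 9.62 CPM in replicates 1 to 4 at 600 ppm. The log2 fold change there was 7.19 ± 1.41 (SE, edgeR adjusted p = 0.0364). Across nitrate levels it was 5.10 ± 0.783 (SE, edgeR adjusted p = 0.000758), and the highest of the 10 libraries at 420 ppm held 0.345 CPM.

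MsG0180000157.01 held 3.82, 9.01 and 13 CPM at 6 mM and 420 ppm, and 376, 622, 214 and 1038 CPM at 600 ppm. Its log2 fold change was 6.03 ± 1.28 (SE, edgeR adjusted p = 0.0473). At 10 mM the CO2 levels overlapped, with 211, 47.8 and 6.75 CPM in replicates 1, 3 and 4 at 420 ppm and 67.1, 238, 87 and 387 CPM at 600 ppm. The value of 211 CPM was that of replicate 1, which stood apart, and the other 2 were below every library at 600 ppm. At 16 mM the levels also overlapped, since replicate 4 at 420 ppm held 90.8 CPM and replicate 3 at 600 ppm 62.2 CPM.

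Among the genes that fell at 6 mM, MsG0580028450.01 was the more abundant of the leading pair, at rank 351 in the other lines. It held 3609, 4277 and 9603 CPM at 420 ppm and 172, 101, 225 and 98.7 CPM at 600 ppm. Its log2 fold change was -5.29 ± 0.923 (SE, edgeR adjusted p = 0.0338). At 10 mM the 3 libraries at 420 ppm spread from 166 over 745 to 1744 CPM and overlapped those at 600 ppm, which ran from 180 to 536 CPM. The 166 CPM was that of replicate 1, which stood apart, and the other 2 were above every library at 600 ppm. At 16 mM replicate 4 at 420 ppm, with 163 CPM, was below replicate 1 at 600 ppm, with 332 CPM, and the other 3 at 420 ppm held 914 to 2665 CPM.

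MsG0580029282.01 held 74.9, 4.96 and 89.6 CPM at 6 mM and 420 ppm and 0.816, 0.689, 2.54 and 1.41 CPM at 600 ppm. Its log2 fold change was -5.37 ± 1.15 (SE, edgeR adjusted p = 0.0473). It was lower without overlap at 16 mM too, where the libraries at 420 ppm ran from 7.95 to 87 CPM and those at 600 ppm from 0.432 to 2.5 CPM. At 10 mM replicate 2 at 600 ppm, with 4.25 CPM, was above replicate 3 at 420 ppm, with 3.59 CPM. The call at 6 mM was lost in 16, 8, 6 and 16 of 29 alternatives for MsG0180000157.01, MsG0480021280.01, MsG0580028450.01 and MsG0580029282.01, in that order. The direction held in every alternative. These 4 identifiers were named for CO2 levels that do not overlap at 6 mM, so leaving out a single library could hardly reverse it.

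**Figure D4:**
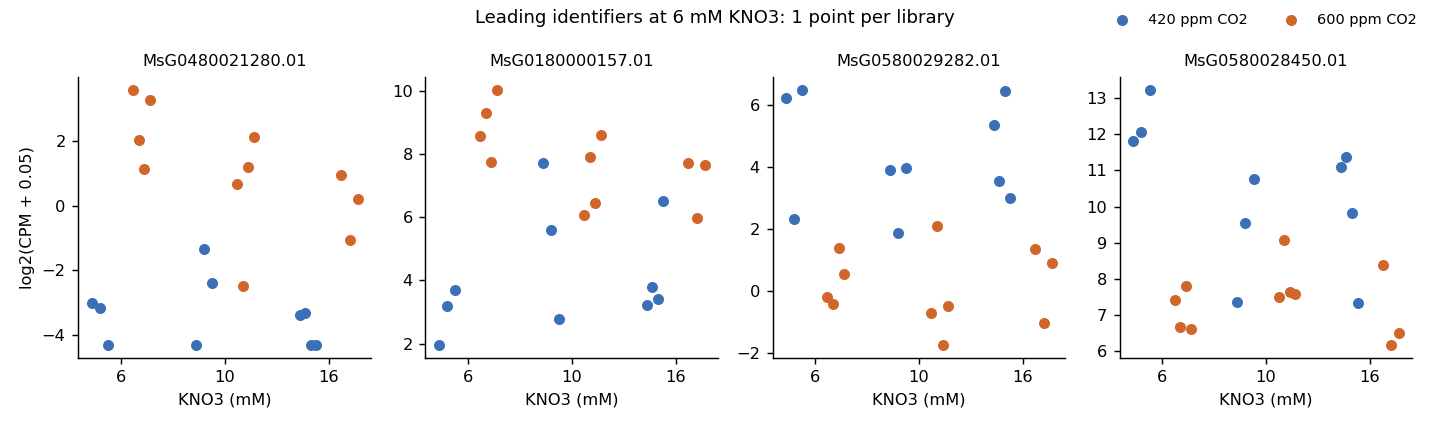
The level of the 4 identifiers that led the response at 6 mM, as log2(CPM + 0.05), by KNO3 (mM), with a point per library and color for CO2. The CO2 levels are apart at 6 mM in all panels, and overlap at 10 mM in all of them, for MsG0180000157.01 and MsG0580028450.01 through replicate 1 at 420 ppm alone.

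The edgeR fit of all 21 libraries and limma-voom called no gene whose CO2 response differed between nitrate levels, while DESeq2 called some. The joint test of both interaction terms called 0 genes in edgeR and 0 in limma-voom, with 1386 or 6.36% at an unadjusted p under 0.05. DESeq2 called 17. For 6 against 10 mM edgeR and limma-voom called 0, DESeq2 gave 300 calls, and an unadjusted p under 0.05 was reached by 1916. For 6 against 16 mM these numbers were 0, 0, 50 and 829, and for 10 against 16 mM 0, 0, 61 and 1154. Without replicate 1 at 16 mM and 420 ppm edgeR called 1 gene for 6 against 16 mM. The larger number of calls at 6 mM is therefore not shown to be a different response, and the smallest group at each level held 3 libraries.

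Across genes the responses at 6 and 16 mM were the most alike. Their log2 differences had a Pearson r of 0.54 over 21776 genes, a value that leaving out single libraries moved between 0.45 and 0.57. For 6 and 10 mM r was 0.35 (0.11 to 0.47) and for 10 and 16 mM 0.31 (0.16 to 0.38). The lowest values for 10 mM came without replicate 4 at 420 ppm, which left replicates 1 and 3. With both libraries that stood apart left out r was 0.47, 0.53 and 0.46 for 6 and 10, 6 and 16, and 10 and 16 mM. Genes are not independent replicates, and no test was made of these values.

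A CO2 score placed each library along the CO2 difference of the other 2 nitrate levels, with -1 and 1 at the means of those levels at 420 and 600 ppm. At 6 mM the 3 libraries at 420 ppm scored -1.31 to -0.95 and the 4 at 600 ppm -0.12 to 0.95, the lowest being replicate 3. At 16 mM the scores were -1.11 to -0.18 and 0.53 to 0.60. At 10 mM they overlapped, at -1.01, -0.14 and 0.79 for replicates 4, 3 and 1 at 420 ppm, and 0.20 to 1.01 at 600 ppm. Replicate 1 at 10 mM and 420 ppm thus lay with the 600 ppm libraries also on a direction drawn without it. The labels do not settle whether it is labelled correctly, and it was kept in its labelled group. Without it alone 3577 genes were called across nitrate levels, against 2421 with it.

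The response of ineffective Agate was set beside that of effective Agate, the same cultivar with working fixation (22 libraries), and of ineffective Saranac, the same fixation class in the other cultivar (21 libraries). The fold changes of the 3 responses come from separate libraries. Calls in effective Agate and in ineffective Saranac, however, come from fits that also hold the libraries of ineffective Agate. The filter and the variance estimates of those fits rest on both lines, so these calls are not independent of those in ineffective Agate. Of the genes that rose in ineffective Agate 73.7% also rose in ineffective Saranac and 32.9% in effective Agate, where 12.5% and 6.98% of the 21776 genes tested in ineffective Agate were called upward. The shared genes made up 23.1% of those that rose in ineffective Saranac and 18.5% of those in effective Agate. Of the genes that fell in ineffective Agate 76.3% also fell in ineffective Saranac and 44.4% in effective Agate, against 12.5% and 7.04% called downward. They were 43.7% and 45.3% of the falls in those lines.

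With the calls of ineffective Agate taken from its own 21 libraries, 2 genes were called in the opposite direction in ineffective Saranac and 5 in effective Agate. That number depends on the fit: in the fit of all 43 Agate libraries, among the genes whose response differed between the classes, 2 rose in ineffective and fell in effective Agate and 13 did the reverse. Among the genes that rose in ineffective Agate, 97.0% had a positive log2 fold change in ineffective Saranac and 86.1% in effective Agate, where 50.2% and 51.1% of genes tested were positive. Among those that fell, 98.4% and 92.1% were negative. Ineffective Saranac had the most calls of its own, 24.2% of 23050 genes tested (12.1% in each direction) against 13.6% of 23209 in effective Agate (6.85% rose and 6.72% fell), which raises any overlap with it. Without the 2 libraries that stood apart the shares of ineffective Agate's genes found in ineffective Saranac were 60.7% of rises and 67.9% of falls, and in effective Agate 37.8% and 42.7%. As shares of the other line's genes, the shared rises then made up 42.1% in ineffective Saranac and 41.8% in effective Agate, and the shared falls 54.5% and 57.7%.

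**Figure D5:**
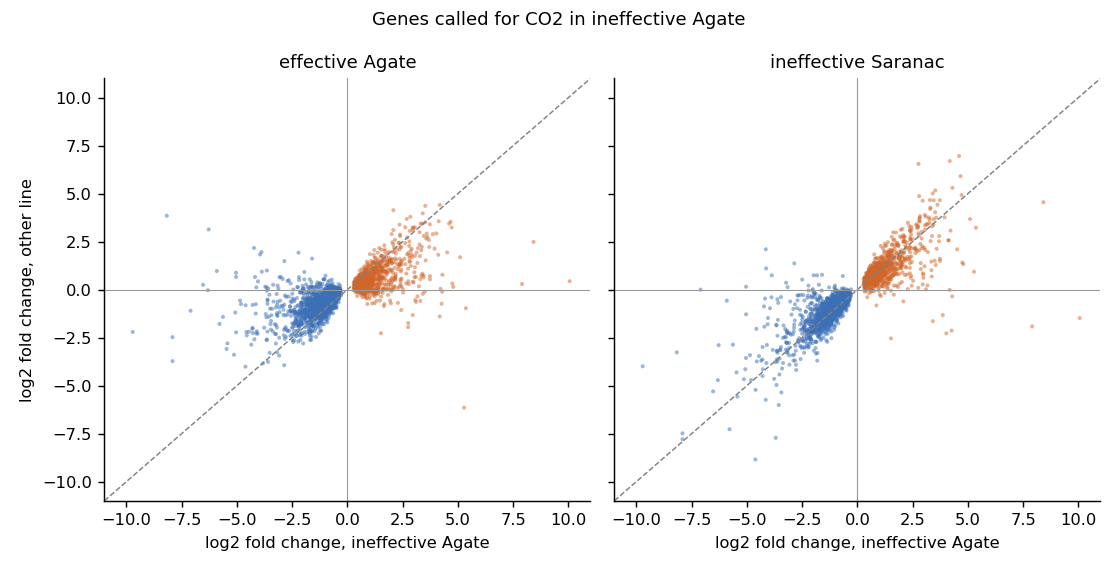
The log2 fold change at 600 against 420 ppm of the 2421 genes called in ineffective Agate (horizontal) against their log2 fold change in effective Agate (left) or ineffective Saranac (right). Each point is a gene, orange where it rose and blue where it fell in ineffective Agate, and the dashed line marks equal values. Most points lie in the quadrants of equal sign, 98.4% of the falls and 97.0% of the rises in the right panel.

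The difference between lines was tested gene by gene, with the log2 change averaged over nitrate levels. Against ineffective Saranac edgeR called 0 of 23050 genes, with 1763 at an unadjusted p under 0.05, while DESeq2 called 119 and limma-voom 1. Leaving out single libraries of ineffective Agate gave 1 (replicate 4 at 10 mM and 600 ppm), 1 (replicate 3 at 16 mM and 420 ppm) or 3 (replicate 4 there), and of ineffective Saranac 1 (replicate 3 at 16 mM and 600 ppm), 4 (replicate 4 at 16 mM and 420 ppm) or 1 (replicate 1 at 10 mM and 420 ppm). Against effective Agate edgeR called 62 of 23209, or 0.267%. In 24 of them, 0.103% of those tested, the log2 change was higher in ineffective Agate, and in 38, or 0.164%, it was lower. Of the 24, 14 rose in ineffective Agate and were not called in effective Agate, 8 fell in effective Agate and were not called in ineffective Agate, and 2 rose in ineffective and fell in effective Agate. Of the 38, 15 fell in ineffective Agate and were not called in effective Agate, 10 rose in effective Agate and were not called in ineffective Agate, and 13 fell in ineffective and rose in effective Agate. Those calls per line come from the fit of all 43 Agate libraries, in which ineffective Agate had 1516 rises and 2153 falls, 6.53% and 9.28%. In the corresponding fit with ineffective Saranac it had 6.62% and 9.21%. DESeq2 called 672 differences from effective Agate and limma-voom 10.

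That number also depended on single libraries. Of ineffective Agate, it was 275 and 33 without replicates 3 and 4 at 6 mM and 600 ppm, 9 and 98 without replicates 2 and 4 at 6 mM and 420 ppm, and 40 without replicate 3 at 10 mM and 600 ppm. It was 232 and 19 without replicates 3 and 4 at 10 mM and 420 ppm, 3 and 19 without replicates 1 and 3 at 16 mM and 600 ppm, and 112 without replicate 3 at 16 mM and 420 ppm. Of effective Agate, it was 29 and 2 without replicates 2 and 3 at 10 mM and 420 ppm, 40 without replicate 3 at 16 mM and 420 ppm, and 24 without replicate 4 at 16 mM and 600 ppm. It was 73 with both libraries that stood apart left out.

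Falls outnumbered rises among the 100 most abundant genes in each of these lines. In effective Agate 39 fell and 1 rose, where 6.72% and 6.85% of all genes tested did, and the median log2 fold change was -0.51 against 0.018 over all genes. In ineffective Saranac 70 fell and 7 rose, where 12.1% of all genes did in each direction, and the median was -0.87 against 0.0026. Both lines were among the 3 whose libraries set the ranks. None of the 100 differed between ineffective and effective Agate in edgeR or limma-voom, where edgeR called 0.267% of all genes tested, and DESeq2 called 4. An unadjusted p under 0.05 was reached by 17 of the 100, close to the 13% of all genes that reached it. The median difference over the 100 was -0.25 on the log2 scale, against -0.022 over all genes tested.

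The identifiers with the greatest differences from effective Agate were uneven between libraries. MsG0480020270.01 held 0.726 to 16.4 CPM in the 10 libraries of ineffective Agate at 420 ppm, with a median of 7.67, and 5.29 to 315 CPM at 600 ppm, with a median of 21. In effective Agate the lowest, median and highest of 11 libraries were 2.68, 34.3 and 2537 CPM at 420 ppm and 2.89, 4.56 and 35.2 CPM at 600 ppm. The difference of the log2 changes was 9.02 ± 1.48 (SE, edgeR adjusted p = 0.0076), made up of a fall of -6.42 ± 1.14 in effective Agate (adjusted p = 0.000433) and a change of 2.59 ± 0.965 in ineffective Agate that did not pass (adjusted p = 0.0623).

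MsG0280010631.01 had no counts in 5 of 10 libraries of ineffective Agate at 420 ppm and a median of 0.046 CPM there, and reached 52.5 CPM at 600 ppm with a median of 2.2 CPM. The medians of effective Agate were 11.5 CPM at 420 ppm, where its highest library held 843 CPM, and 1.38 CPM at 600 ppm. The difference of the log2 changes was 12.3 ± 2.14 (SE, edgeR adjusted p = 0.0172), a fitted size that depends on the prior count because all 3 libraries at 6 mM and 420 ppm had no counts. In limma-voom its adjusted p was 0.401, and in edgeR it was 0.0581 when effective Agate lacked replicate 3 of its 10 mM, 420 ppm group. For MsG0480020270.01 limma-voom gave 0.227.

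On the other side, MsG0480019192.01 and MsG0280006552.01 were high in 2 libraries of ineffective Agate at 420 ppm and low in the rest. MsG0480019192.01 held 450 CPM in replicate 1 at 16 mM and 197 CPM in replicate 2 at 6 mM, and at most 3.93 CPM in the other 8 libraries at 420 ppm. MsG0280006552.01 held 13966 and 971 CPM in the same 2 libraries and at most 2.01 CPM in the other 8. At 600 ppm the highest of 11 libraries was 0.935 CPM for the former and 33.6 CPM for the latter. The fitted size for the former depends on the prior count, because no library at 16 mM and 600 ppm had counts of it. The differences of both from effective Agate were -13.2 ± 2.45 (SE, edgeR adjusted p = 0.0186) and -11.6 ± 2.48 (SE, edgeR adjusted p = 0.0317), and with the 2 libraries that stood apart left out the adjusted p was 1.0 and 0.467. In limma-voom they were -6.00 and -4.92, and neither passed (adjusted p = 0.243 and 0.572). The former lost its call without replicate 1 at 10 mM and 420 ppm (adjusted p = 1.0), replicate 2 at 6 mM and 420 ppm (0.0803), replicate 1 at 16 mM and 600 ppm (0.0558) or, in effective Agate, replicate 3 at 10 mM and 420 ppm (0.0613). The latter lost it in 16 of 49 alternatives. Among these were leaving out replicate 1 at 16 mM (adjusted p = 0.0827), replicate 2 at 6 mM (0.383), replicate 1 or 4 at 10 mM (0.444 and 0.0516), all at 420 ppm, and replicate 1, 3 or 4 at 16 mM and 600 ppm (0.0957, 0.0926 and 0.0544). In effective Agate they were replicates 1, 2 and 3 at 10 mM and 420 ppm (0.0653, 0.0834 and 0.0869), replicate 4 at 16 mM and 600 ppm (0.0624) and replicate 1 at 6 mM and 600 ppm (0.0623). Within ineffective Agate alone neither passed across nitrate levels in the fit of its 21 libraries (edgeR adjusted p = 0.0656 and 0.15). The test of DESeq2 is not among the alternatives counted for either identifier.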

How the data were processed

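The authors deposited raw counts of reads per gene, made with featureCounts according to the submitters' processing notes. Not given in the sources used here are its version and strand setting, the aligner, the build and the gene models, so reads from near-identical copies or antisense genes may have been split. Polyadenylated leaf RNA was prepared with a stranded kit, per the labels' protocols. Columns were matched to samples by title, and no columns were identical.

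Counts were tested with edgeR 4.0.16 in R 4.3.3 (TMM scaling, filterByExpr, robust quasi-likelihood fit, Benjamini-Hochberg adjustment over all genes tested). The response across nitrate levels used the 21 libraries with nitrate as an additive block, the levels and their differences 6 group terms, and each comparison of lines the 43 Agate or the 42 ineffective libraries with 12 group terms and equal weight of nitrate levels. The SE of a log2 fold change is its absolute value divided by the root of F. Principal components, scores and correlations used log2 CPM with a prior count of 2. The scripts were tested on simulated data. The members, tests and the rule for naming identifiers were chosen with earlier results of these data known. That rule takes, per contrast, the 2 highest and the 2 lowest log2 fold changes among called genes with a mean of at least 1 CPM in the 21 libraries, and for CO2 responses without overlap of the CO2 levels at the nitrate levels concerned. Alternatives were DESeq2 1.42.0, for its size factors alone or its own test, limma-voom of limma 3.58.1 with library weights, other filters, the replicate number as a block, all 85 grouped libraries in 1 model, and leaving libraries out. Results without the 2 libraries that stood apart used those of largest residual variance, and where they concern overlaps, ranks or correlations they were added after seeing the data.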

Additional observations from a re-analysis of the deposited data

Results flagged for a closer look

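In groups of 4 libraries a library was marked where its gap to the next one, divided by the range of the group, exceeded Dixon's 95% critical value. Chance marks about 1 in 20 groups of normally spread values, and 11 of 48 were marked. That rate is no yardstick here, since most of the groups are of identifiers named for large differences in these libraries, on a skewed scale, and some marks rest on a few counts beside libraries with none. At 6 mM and 600 ppm the 100 most abundant genes held 35.8% of the counts in replicate 3 against 24.2 to 25.1% in the others. In the same group MsG0780037187.01 stood at 20.5 CPM in replicate 3 against 0.306 to 1.15 CPM. In replicate 2 of that group MsG0280010631.01 stood at 52.5 CPM against 0 to 3.86 CPM, and MsG0480020270.01 at 315 CPM against 5.29 to 18.2 CPM.

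At 10 mM and 600 ppm replicate 2 was high for MsG0580029282.01 (4.25 against 0.246 to 0.66 CPM) and for MsG0580028450.01 (536 against 180 to 198 CPM). MsG0880042119.01 had 0.0373 CPM in replicate 1 there and no counts in the others. At 16 mM and 420 ppm replicate 4 was high for MsG0180000157.01 (90.8 against 9.29 to 13.7 CPM) and held 0.192 CPM of MsG0180004901.01, which had no counts in the others. Replicate 1 of that group, which stood apart on the second principal component, was high for MsG0480019192.01 (450 against 0.158 to 3.93 CPM) and for MsG0280006552.01 (13966 against 0.105 to 2.01 CPM).

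The CO2 response differed between ineffective and effective Agate in 62 genes by the edgeR test of the difference. Among the identifiers named for it the difference of log2 changes was 12.3 for MsG0280010631.01, 9.02 for MsG0480020270.01, -13.2 for MsG0480019192.01 and -11.6 for MsG0280006552.01.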

How the results depend on the processing

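The difference in the share of counts of the 100 most abundant genes, in genes that hold 50% of the counts and in genes at 1 CPM kept its direction and an exact permutation p under 0.05 in each alternative run, with leave-one-out ranges of -12.97 to -9.74 points, 294 to 358 genes and 163 to 239 genes. Numbers of called genes moved more. Across nitrate levels 2421 became 3965 with the test of DESeq2, 4123 with limma-voom, 4501 without the 2 libraries that stood apart and 4243 with 85 libraries in 1 model, and 1724 to 3577 on leaving out single libraries. The split between rises and falls was 1978 and 2145 in limma-voom. At 6 mM 110 became 1947 with DESeq2, 61 with no filter, 198 with at least 1 CPM in 3 libraries, 1114 with limma-voom, 964 without the 2 libraries, 1590 with 85 libraries, and 1 to 676 on leaving out single libraries. At 10 mM 0 became 666, 19, 323 and 604 with DESeq2, at least 1 CPM in 3 libraries, without the 2 libraries and with 85 libraries (0 to 101 on leaving out 1 library). At 16 mM it became 358 with DESeq2 and 120 with 85 libraries (0 to 1). For the joint test of nitrate and CO2 DESeq2 gave 17, the 85 libraries 4 and leaving out the 2 libraries 1. For 6 against 10 mM DESeq2 gave 300 and the 85 libraries 9, and for 10 against 16 mM 61 and 2. For 6 against 16 mM DESeq2 gave 50, the 85 libraries 1 and leaving out the 2 libraries 1 (0 to 1 on leaving out 1). The 62 genes that differed from effective Agate became 672 with DESeq2, 35 with no filter and 10 with limma-voom (2 to 275 on leaving out 1), and the 0 against ineffective Saranac 119 with DESeq2 and 1 with limma-voom (0 to 4). The causes were not tested. Size factors from DESeq2, used within edgeR, moved the median log2 fold change of all genes by at most 0.016 in the contrasts checked.

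Libraries of equal replicate number were compared only across CO2 levels within a nitrate level. In 9 such pairs the correlation of their deviations ran from -0.16 to 0.24, above 0.1 in 2. Of 9 libraries, 3 correlated best with their own number. Both libraries that stood apart were replicate 1 at 420 ppm, and 6 mM had no replicate 1 at that CO2 level. Whether equal numbers share a factor within a CO2 level was not tested. With the replicate block 1929 genes were called across nitrate levels, 17 at 6 mM and 11 for the difference from effective Agate, and 0 in the contrasts that had 0 without it. With 3 or 4 libraries in a group, precision is limited by the spread between libraries. Squared deviations of counts, relative to expected counts, were 64.3 to 430 times what sampling alone gives (chi-square over degrees of freedom, 27 pairs).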

Other observations

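The spread of libraries around their group means was compared between CO2 levels. The variance of log2 CPM around the group mean was 1.28 ± 0.427 (SD, n = 10) at 420 ppm, with a lowest, median and highest library of 0.866, 1.16 and 2.09. At 600 ppm it was 0.858 ± 0.129 (SD, n = 11), with 0.617, 0.822 and 1.11. The 2 highest values at 420 ppm are those of the libraries that stood apart, and the other 8 ran from 0.866 to 1.43, overlapping the range at 600 ppm. No test was made.

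In the numbering of the table, called genes had a neighbor called in the same direction more often than all genes tested were called. The shares of all genes tested were not matched for abundance or for a tested neighbor. Of 1010 genes that fell and whose next identifier was also tested, 167 or 16.5% were followed by one that fell too, where 7.18% of all genes tested fell, and 34 were followed by one that rose. Of 520 that rose, 68 or 13.1% were followed by one that rose, against 3.94%, and 24 by one that fell. What the numbering of the identifiers follows is not given in the sources used here, and reads shared between similar neighbors could add to these numbers, which was not tested.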
